A study of Mus musculus with 14 samples.

Results

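A set of 10 genes of mitochondrial dynamics and biogenesis was followed in Tregs, regulatory T cells that hold immune responses in check and are defined by the transcription factor Foxp3. They were taken by name from a table of 22255 genes, and all 10 were present: the fusion genes Mfn1, Mfn2 and Opa1, the fission genes Dnm1l, Fis1 and Mff, the nuclear factors Nrf1, Gabpa and Esrra, and the mitochondrial DNA (mtDNA) factor Tfam. Of the 14 libraries, each of Foxp3-YFP-positive Tregs from mice aged 8 weeks, 3 came from Yumm1.7 melanomas of CD36floxed FoxP3-YFPCre+/- mice labelled CD36 KO (KO tumor, replicates 1 to 3). Another 3 came from the same kind of melanoma in FoxP3-YFPCre+/+ mice (WT tumor, replicates 2 to 4), and 4 each from lymph node (LN) and spleen of FoxP3-YFPCre+/+ mice. All groups thus carry the Foxp3-driven YFP-Cre. By the labels the KO group differs from the WT tumor group both in the floxed Cd36 allele and in the Cre allele (+/- against +/+), and the effects of these cannot be told apart. Cd36 encodes a surface receptor for fatty acid and oxidized lipid uptake. The study asked how Treg expression differs among spleen, lymph node and tumor, and between WT and KO tumors.

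Mitochondria fuse and divide continuously. Mitofusins join the outer membranes and OPA1 the inner ones, while the GTPase DRP1, the product of Dnm1l, is recruited to the outer membrane by adaptors such as MFF and constricts it. Nuclear respiratory factor NRF1, the ETS factor GABPA and the orphan nuclear receptor ERR alpha (Esrra) drive nuclear genes for the respiratory chain and for mtDNA upkeep, and TFAM packs mtDNA and starts its transcription. Tregs are known for a strong reliance on oxidative metabolism.

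The 300 bases around each RefSeq start (250 before, 50 after, GRCm38.p6) were read for letters of the sites named after these same nuclear factors, since the 10 genes include both the factors and genes described as their targets. All 10 genes matched the promoter table. On either strand, the ETS core CCGGAAG was found in 5 of 10 genes (Mfn1, Fis1, Tfam, Dnm1l and Gabpa), against 9.93% of all 27025 genes. The NRF1 letters CGCATGCG were found in 2 of 10 genes (Opa1 and Gabpa), against 2.07% of genes, and the longer NRF1 palindrome consensus, which allows any base at its sixth position, in Opa1 alone, where it overlaps the shorter one, against 5.19%. The ERR element TCAAGGTCA and its shorter form AAGGTCA, which lies within it, were in 0 of 10 (0.466% and 5.38% of genes). A match is a description of letters in these windows and was not tested as a site. The shares cover all genes with a RefSeq start, expressed or not, and single genes had up to 3 windows (Mfn2). They are therefore not a matched background, and enrichment was not tested. Shown are the 100 bases before the start for the 4 genes whose libraries separated between groups in a tissue comparison (Opa1, Fis1, Mff and Esrra) and for Gabpa and Tfam, with motif letters in capitals, written 5′ to 3′ on the gene's strand.
Opa1, chr16:29579234-29579333, plus strand: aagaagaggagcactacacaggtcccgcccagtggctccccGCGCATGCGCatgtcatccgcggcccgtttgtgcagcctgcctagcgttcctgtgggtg
Fis1, chr5:136953175-136953274, plus strand: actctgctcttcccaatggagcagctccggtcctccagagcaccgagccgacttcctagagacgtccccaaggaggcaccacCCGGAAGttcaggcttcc
Mff, chr1:82724790-82724889, plus strand: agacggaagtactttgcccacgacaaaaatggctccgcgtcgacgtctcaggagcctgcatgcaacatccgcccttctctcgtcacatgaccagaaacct
Esrra, chr19:6921809-6921908, minus strand: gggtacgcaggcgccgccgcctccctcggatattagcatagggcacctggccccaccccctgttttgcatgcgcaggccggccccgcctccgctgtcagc
Gabpa, chr16:84835024-84835123, plus strand: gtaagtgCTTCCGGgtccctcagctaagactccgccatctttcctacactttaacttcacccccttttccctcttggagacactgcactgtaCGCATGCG
Tfam, chr10:71238045-71238144, minus strand: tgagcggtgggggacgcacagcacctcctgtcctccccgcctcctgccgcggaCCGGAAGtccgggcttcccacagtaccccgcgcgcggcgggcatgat
Opa1 carries the longer NRF1 palindrome, beginning 59 bases before its start. Fis1 and Tfam carry the ETS core 18 and 47 bases before the start, and Gabpa carries it on the opposite strand (as CTTCCGG) 93 bases before and the NRF1 letters 8 bases before. For Gabpa, Tfam and Esrra the RefSeq start lies inside the annotated gene bounds given below. The printed stretches of Gabpa and Tfam fall within those bounds. For Esrra only the last few bases of the stretch, next to the start, do. Positions are counted from the RefSeq start only. No searched letters lie in the stretches of Mff and Esrra.

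The deposited values were FPKM (fragments scaled to transcript length and to the mapped fragments of the library), a level per length meant for comparison between genes. The spacing of low values gave depths of 10.7 to 21.5 M reads per library, and 7469 to 8307 genes per library reached 1 FPKM. Nothing in the labels says that replicates came from separate mice, so p-values measure the spread between these samples only, which may be technical. Cd36 cannot check the KO label by its level: it was listed at 0 in 2 of 3 KO tumor libraries (1.06 FPKM in replicate 2) and in all WT tumor and LN libraries. Foxp3, the Treg marker, had 42.4, 41.7 and 25.7 FPKM in KO tumor, 12.0, 3.54 and 12.0 FPKM in WT tumor, 15.4 to 32.3 FPKM in LN and 8.67 to 27.8 FPKM in spleen. The summed level of 9 macrophage or monocyte markers was 277 to 398 FPKM in KO tumor, 1.12 to 106 FPKM in WT tumor, 4.0 to 36.1 FPKM in LN and 264 to 709.5 FPKM in spleen. Of these markers 8 of 9 reached 1 FPKM in at least 1 KO tumor library and 5 of 9 in at least 1 WT tumor library. Tyrobp had 91.8 to 177 FPKM in KO tumor and 0.492 to 6.11 FPKM in WT tumor, Fcer1g 59.4 to 149.9 FPKM and 0.185 to 78.0 FPKM, and C1qb 36.1 to 93.0 FPKM and 0.128 to 0.685 FPKM. Csf1r had 1.78 to 5.23 FPKM in KO tumor and at most 0.0763 FPKM in WT tumor, Cd68 at most 9.10 FPKM in KO tumor and 0 in WT tumor, and Adgre1 at most 0.0179 FPKM in KO tumor and 0 in WT tumor. Lyz2 went the other way in mean, with 2.19 FPKM (0 to 6.21) in KO tumor and 6.68 FPKM (0 to 19.9) in WT tumor. The summed level of 6 immediate early genes, known to follow cell isolation, was 947 to 1169 FPKM in KO tumor, 1081 to 1422 FPKM in WT tumor, 49.5 to 108 FPKM in LN and 105 to 197 FPKM in spleen. The summed level of 5 erythroid genes was 63.3 to 16430 FPKM in KO tumor, 225 to 11900 FPKM in WT tumor, 79.0 to 1190 FPKM in LN and 2969 to 7079 FPKM in spleen. The summed level of 6 B cell markers was 284 to 323 FPKM in KO tumor and 362 to 592 FPKM in WT tumor. In LN it was 605 to 706.5 FPKM and in spleen 789 to 1427 FPKM, without overlap between any groups. Most of it was Ighm, with means of 269, 398, 604 and 955 FPKM in the same order. The macrophage sum did not overlap between KO tumor and WT tumor, nor between spleen and WT tumor or LN, and it overlapped between WT tumor and LN. The immediate early sum did not overlap between WT tumor and LN or spleen, and the erythroid sum did not overlap between LN and spleen. The part of these sums in the results was not tested. In such bulk samples fewer cells of a type and less RNA per cell cannot be told apart.

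None of the 10 genes passed the test in any comparison of the study. The test was robust limma-trend on log2(FPKM + 1), over all genes that reached 1 FPKM in at least 3 libraries of the fit, with a Benjamini-Hochberg adjusted p of 0.05 as threshold. For KO tumor against WT tumor 0 of the 9 genes tested passed (0.280% of all 8210 genes tested did), and Mfn1 was too low to be tested. For WT tumor against LN it was 0 of 10 (3.04% of 9616 genes), for WT tumor against spleen 0 of 10 (1.90%) and for LN against spleen 0 of 10 (0.499%). At an unadjusted limma p under 0.05 there were 2, 2, 3 and 1 of these genes in the same order of comparisons, against 8.64, 15.6, 14.3 and 10.4% of all genes. Of the 292 genes called for WT tumor against LN, 62.3% were higher in WT tumor; the share was 51.4% of the calls made with libraries scaled to their protein-coding total.

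Libraries of 2 groups did not overlap for 3 of the 9 genes tested between KO tumor and WT tumor (Mfn2 and Opa1 higher in KO, Mff lower), where 14.5% of all genes did not. Between WT tumor and LN the same held for 3 of 10 genes (Fis1 and Mff higher, Opa1 lower) and 17.0% of all genes. It held for 3 of 10 genes (Fis1 higher, Opa1 and Esrra lower) and 11.5% of all genes between WT tumor and spleen, and for 0 of 10 and 7.87% between LN and spleen. These are counts beside the shares of all genes and carry no test. The 3 comparisons that include WT tumor share its libraries, so the low Opa1 level of WT tumor enters each of them.

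**Figure D1:**
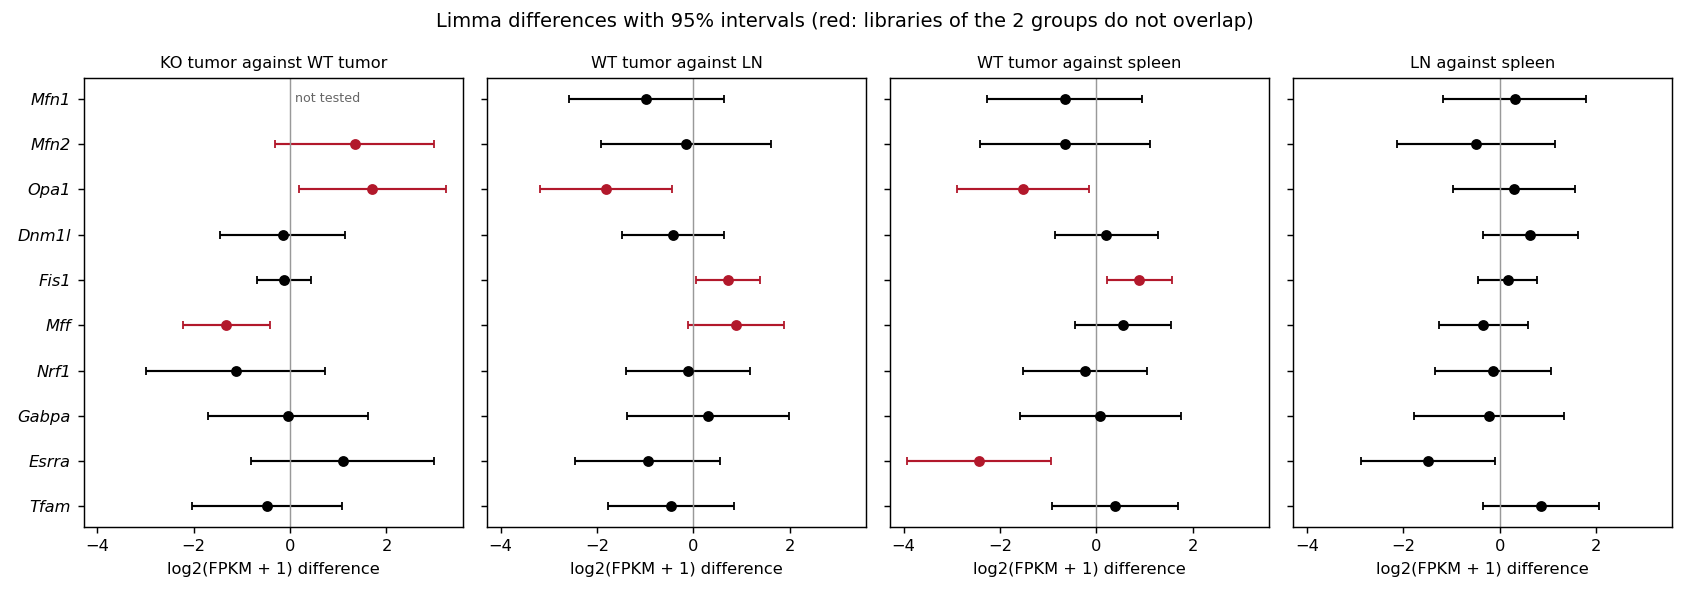
Log2(FPKM + 1) differences of the 10 genes (points) with 95% limma intervals (bars) in 4 comparisons, with the first-named group minus the second. Red marks genes whose libraries did not overlap between the groups, such as Opa1 at 1.70 for KO tumor against WT tumor and -1.82 for WT tumor against LN; no gene passed an adjusted p of 0.05.

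In level the 10 genes spanned more than 2 orders of magnitude. Fis1 averaged 324 FPKM over the 14 libraries and was the highest of the 10 in all 14. Mff (mean 70.7 FPKM) was second in 12 libraries. Then came Dnm1l (20.9), Esrra (11.6), Nrf1 (8.76), Opa1 (6.68), Gabpa (4.49), Mfn2 (4.47), Tfam (2.27) and Mfn1 (1.92 FPKM). The fission genes thus stood above the fusion genes in mean FPKM, and Fis1 alone made up 65.4 to 91.0% of the summed FPKM of the 3 fission genes. Longest coding transcripts ran from 948 bases (Fis1) to 6230 bases (Opa1), and how well FPKM compares genes of such unlike length was not tested. Among genes with a mean of at least 1 FPKM, Fis1 stood at the 97.3 percentile and Mfn1 at the 13.3 percentile.

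**Figure D2:**
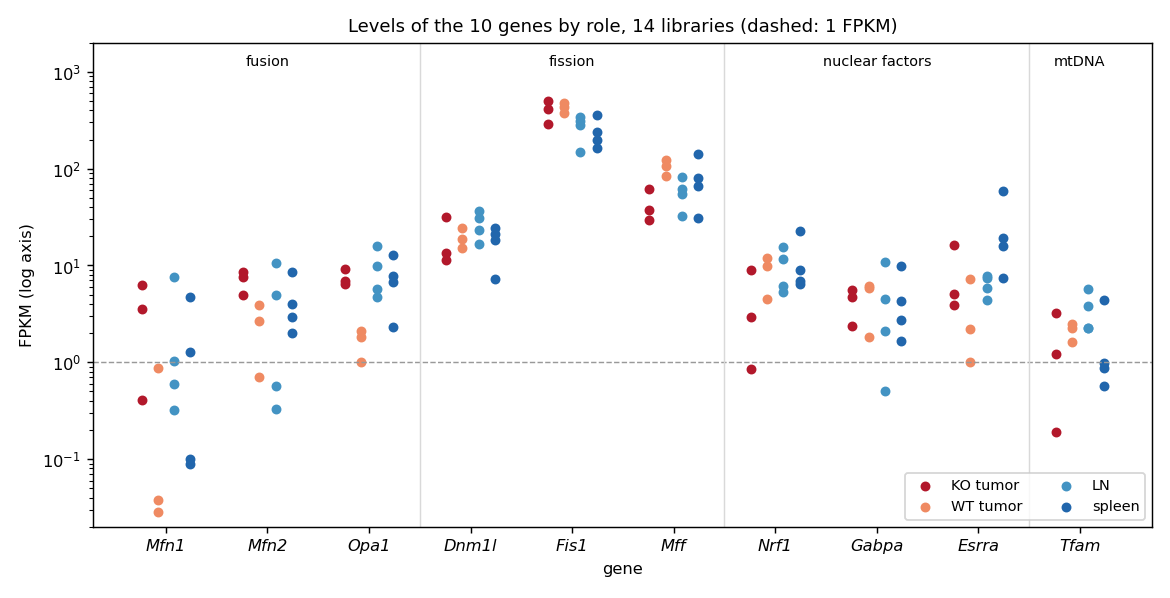
FPKM of the 10 genes on a log axis, 1 point per library, with KO tumor, WT tumor, LN and spleen from left to right within each gene. Fis1 lies between 148 and 504 FPKM in all 14 libraries, while Mfn1 lies under 1 FPKM (dashed line) in 8 of them.

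Opa1 encodes the dynamin-like GTPase that fuses inner membranes and shapes cristae (chromosome 16, 29579334 to 29654884, plus strand, GRCm38). Its level was 6.99, 9.27 and 6.43 FPKM in KO tumor, 2.09, 1.84 and 1.02 FPKM in WT tumor, 9.99, 15.9, 4.74 and 5.67 FPKM in LN, and 6.69, 7.71, 2.33 and 12.9 FPKM in spleen. All 3 WT tumor libraries lay below all 11 others, and the other 3 groups overlapped each other. Means were 7.56 ± 1.5 (KO tumor, SD, n = 3), 1.65 ± 0.562 (WT tumor, n = 3), 9.07 ± 5.09 (LN, n = 4) and 7.41 ± 4.34 FPKM (spleen, n = 4). The log2 difference was 1.70 ± 0.68 (SE) for KO tumor against WT tumor (95% interval 0.18 to 3.23), with a limma adjusted p of 0.528. It was -1.82 ± 0.64 for WT tumor against LN (-3.19 to -0.45, limma adjusted p = 0.170) and -1.52 ± 0.64 against spleen (-2.89 to -0.15, limma adjusted p = 0.298). LN and spleen differed by 0.30 ± 0.59 (-0.97 to 1.57). Leaving out any 1 library kept the sign in the 3 comparisons that include WT tumor, at 1.52 to 1.83, -2.04 to -1.52 and -1.91 to -1.22. The macrophage marker sum was 277 to 398 FPKM in KO tumor, 1.12 to 106 FPKM in WT tumor and 264 to 709.5 FPKM in spleen. It thus moved with Opa1 between WT tumor and KO tumor and between WT tumor and spleen. Between WT tumor and LN (4.0 to 36.1 FPKM) it overlapped. The B cell marker sum was lower in WT tumor than in LN and spleen, but higher than in KO tumor. The part of these sums was not tested.

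Mfn2 and Mfn1 encode the outer membrane mitofusins, of which Mfn2 also tethers mitochondria to the endoplasmic reticulum. Mfn2 (chromosome 4, 147873599 to 147904704, minus strand) had 4.97, 8.52 and 7.67 FPKM in KO tumor, against 0.698, 3.93 and 2.65 FPKM in WT tumor. In LN it had 10.7, 4.92, 0.330 and 0.569 FPKM, and in spleen 2.96, 3.99, 2.0 and 8.66 FPKM. Every KO tumor library was above every WT tumor library, while LN alone covered the range of all other groups. The KO tumor against WT tumor difference was 1.34 ± 0.73 (95% interval -0.32 to 2.99, limma adjusted p = 0.698). The WT tumor differences were -0.15 ± 0.82 against LN (-1.92 to 1.62) and -0.65 ± 0.82 against spleen (-2.41 to 1.12), and LN against spleen was -0.50 ± 0.76 (-2.13 to 1.14).

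Mfn1 (chromosome 3, 32529465 to 32579239, plus strand) was the lowest of the 10 genes. Its level was 6.24, 0.406 and 3.57 FPKM in KO tumor and 0.0380, 0.864 and 0.0283 FPKM in WT tumor. LN had 0.593, 1.04, 0.322 and 7.62 FPKM, and spleen 1.28, 0.0994, 0.0886 and 4.74 FPKM. In WT tumor 2 and 4 it lay under the level that 3 reads would give over its longest coding transcript (4562 bases; 0.0306 to 0.0614 FPKM across libraries). Over its shortest coding transcript (616 bases) that level is higher. Spleen 2 (0.0994 against 0.396 FPKM) and spleen 3 (0.0886 against 0.353 FPKM) then also lay under it. LN 4 stood far above the other LN libraries, and all groups overlapped. WT tumor against LN was -0.97 ± 0.75 (-2.58 to 0.64) and against spleen -0.66 ± 0.75 (-2.27 to 0.95). LN against spleen was 0.31 ± 0.69 (-1.18 to 1.80).

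Fis1 encodes a tail-anchored outer membrane protein whose role in fission was first described in yeast (chromosome 5, 136953275 to 136966234, plus strand). It had 412, 504 and 288 FPKM in KO tumor, 436, 474 and 376 FPKM in WT tumor, 339, 285, 309 and 148 FPKM in LN, and 196, 359.7, 239 and 165 FPKM in spleen. All 3 WT tumor libraries were above all 8 LN and spleen libraries, and KO tumor overlapped with each other group. Means were 401 ± 108 (KO tumor), 429 ± 49.2 (WT tumor), 270.2 ± 84.1 (LN) and 239.8 ± 85.5 FPKM (spleen). WT tumor was higher than spleen by 0.89 ± 0.31 on the log2 scale (0.23 to 1.56, limma adjusted p = 0.187) and than LN by 0.72 ± 0.31 (0.06 to 1.39, limma adjusted p = 0.273). LN against spleen was 0.17 ± 0.29 (-0.45 to 0.78). KO tumor against WT tumor was -0.12 ± 0.25 (-0.68 to 0.43), the narrowest interval of any of the 9 genes tested in that comparison.

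Mff encodes the main adaptor that recruits DRP1 (chromosome 1, 82724890 to 82752394, plus strand). Its level was 29.3, 37.0 and 61.1 FPKM in KO tumor and 106, 83.6 and 122 FPKM in WT tumor. It was 32.7, 61.0, 82.7 and 54.6 FPKM in LN and 79.2, 143, 66.1 and 30.9 FPKM in spleen. The WT tumor libraries lay above all KO tumor and LN libraries, and spleen overlapped with every group. KO tumor differed from WT tumor by -1.32 ± 0.40 (95% interval -2.23 to -0.41), with a limma adjusted p of 0.338, and this was the smallest adjusted p of the 9 genes in that comparison. WT tumor against LN was 0.89 ± 0.46 (-0.10 to 1.89, limma adjusted p = 0.376), against spleen 0.55 ± 0.46 (-0.44 to 1.55), and LN against spleen -0.34 ± 0.43 (-1.26 to 0.58). Leaving out 1 library at a time gave -1.61 to -1.09 for KO tumor against WT tumor. Unlike for Opa1, the macrophage marker sum went the other way from Mff between the tumor groups. It was higher in KO tumor (277 to 398 FPKM) than in WT tumor (1.12 to 106 FPKM), and its part was not tested.

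Dnm1l, which encodes the fission GTPase DRP1 (chromosome 16, 16312230 to 16358959, minus strand), overlapped between all groups. It had 11.4, 13.4 and 31.5 FPKM in KO tumor, 24.3, 15.0 and 18.6 FPKM in WT tumor, 36.8, 16.8, 30.7 and 23.4 FPKM in LN, and 24.4, 21, 18.3 and 7.25 FPKM in spleen. KO tumor 3 was among the highest libraries and KO tumor 1 among the lowest. The differences were -0.15 ± 0.58 for KO tumor against WT tumor (-1.45 to 1.15), -0.43 ± 0.49 for WT tumor against LN (-1.49 to 0.63), 0.21 ± 0.49 for WT tumor against spleen (-0.85 to 1.27) and 0.64 ± 0.46 for LN against spleen (-0.35 to 1.62).

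**Figure D3:**
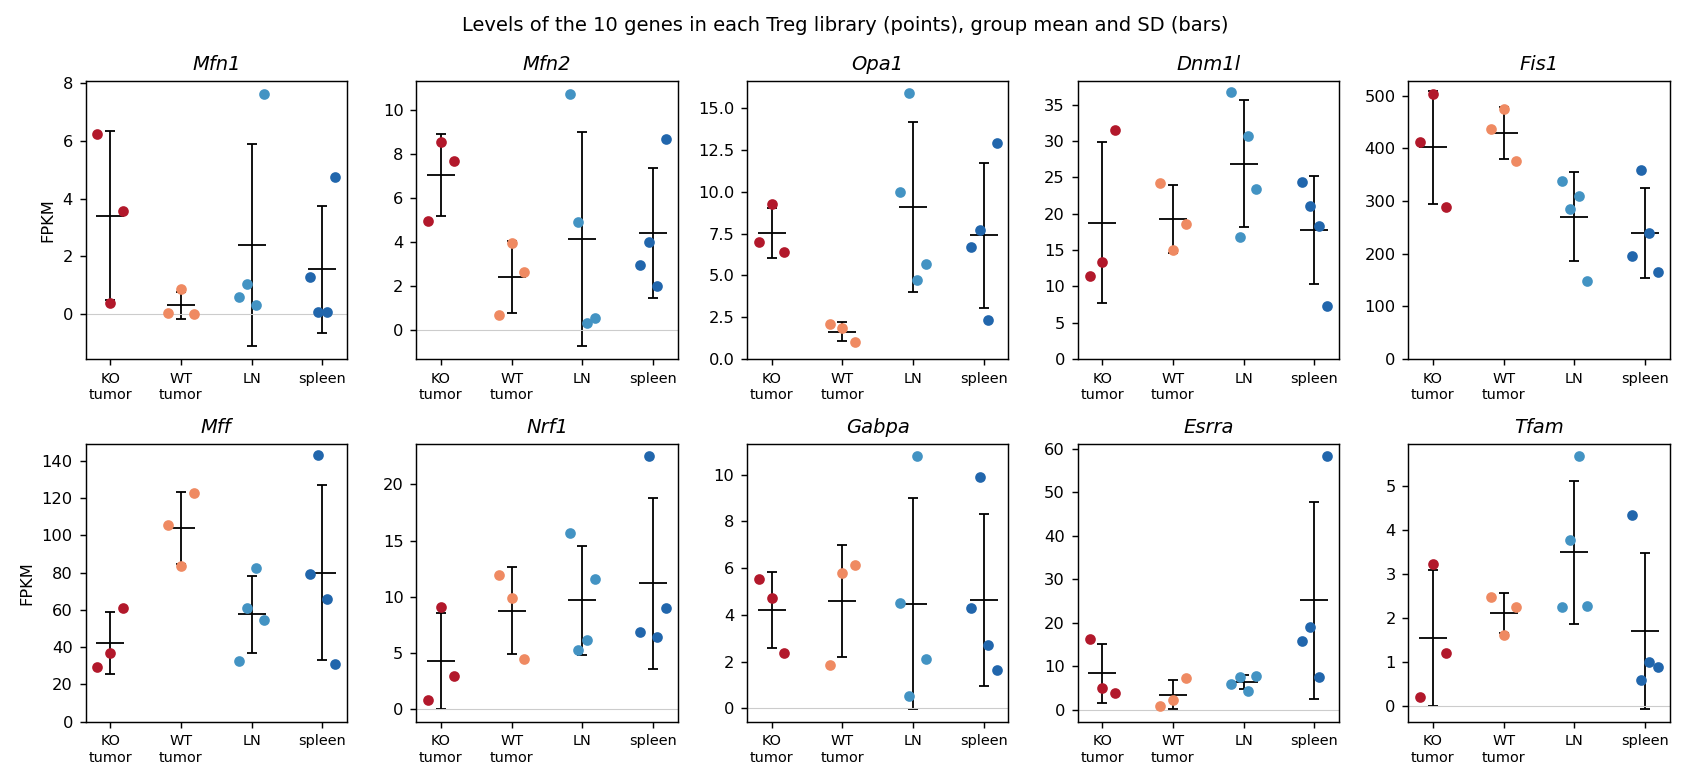
FPKM of each of the 10 genes by group, with 1 point per library, the group mean (horizontal line) and SD (vertical bar). Opa1 in WT tumor lies between 1.02 and 2.09 FPKM, below every other library, and Fis1 in WT tumor lies between 376 and 474 FPKM, above every LN and spleen library.

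Summed over Mfn1, Mfn2 and Opa1, fusion levels were 18.2, 18.2 and 17.7 FPKM in KO tumor and 2.83, 6.63 and 3.70 FPKM in WT tumor. The sums were 5.39 to 21.9 FPKM in LN and 4.42 to 26.3 FPKM in spleen, so only the tumor groups stood apart from each other. Fission levels summed over Dnm1l, Fis1 and Mff were 453, 554 and 381 FPKM in KO tumor and 566, 573 and 517 FPKM in WT tumor, and these overlapped. Since Fis1 makes up most of that sum, the other members were also summed without it, a choice made after the values were seen. Dnm1l and Mff together gave 40.7, 50.4 and 92.5 FPKM in KO tumor and 130, 98.6 and 141 FPKM in WT tumor, against 69.4 to 113 FPKM in LN and 38.2 to 164 FPKM in spleen. The ratio of Dnm1l and Mff to fusion FPKM was 2.24 to 5.24 in KO tumor and 14.9 to 46.0 in WT tumor, 3.26 to 21 in LN and 1.45 to 19.1 in spleen. These sums follow from the single genes above, rest on the same comparison of FPKM between genes, and are given without a test.

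**Figure D4:**
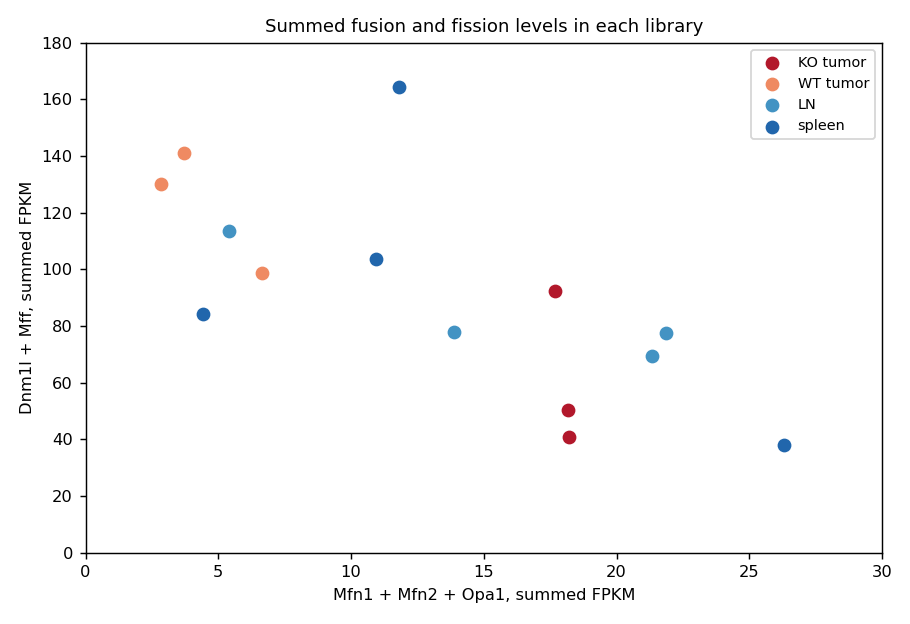
Summed FPKM of Dnm1l and Mff (vertical axis) against summed FPKM of Mfn1, Mfn2 and Opa1 (horizontal axis), 1 point per library. The 3 KO tumor libraries lie at 17.7 to 18.2 FPKM of fusion genes and the 3 WT tumor libraries at 2.83 to 6.63, while LN and spleen libraries spread across both.

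Esrra encodes ERR alpha, the nuclear receptor that acts with PGC-1 coactivators on genes of oxidative phosphorylation (chromosome 19, 6910977 to 6921813, minus strand). It had 16.2, 5.10 and 3.90 FPKM in KO tumor, 0.997, 2.22 and 7.27 FPKM in WT tumor, 5.86, 7.47, 4.40 and 7.88 FPKM in LN, and 15.8, 19.1, 7.47 and 58.3 FPKM in spleen. Spleen held the highest libraries, and each spleen library was above each WT tumor library, although the nearest pair differed by little (7.47 against 7.27 FPKM). The WT tumor against spleen difference was -2.43 ± 0.70 (95% interval -3.93 to -0.94) with a limma adjusted p of 0.110, the smallest of the 10 genes in any of the 4 comparisons. It lay between -3.00 and -1.92 when 1 library was left out. LN against spleen was -1.48 ± 0.64 (-2.87 to -0.10, limma adjusted p = 0.441), WT tumor against LN -0.95 ± 0.70 (-2.44 to 0.55) and KO tumor against WT tumor 1.09 ± 0.84 (-0.81 to 2.99). The annotation places the gene Trmt112 over Esrra on the opposite strand, and whether the authors' values used strand is not given in the sources used here, so reads could be shared. Trmt112 had means of 54.0 FPKM in WT tumor against 154 FPKM in spleen (-1.88 ± 0.50, limma adjusted p = 0.0864), also without overlap. The macrophage marker sum was 1.12 to 106 FPKM in WT tumor and 264 to 709.5 FPKM in spleen. The B cell marker sum, 362 to 592 FPKM in WT tumor and 789 to 1427 FPKM in spleen, went the same way. The part of these sums in the Esrra values was not tested.

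Nrf1 encodes nuclear respiratory factor NRF1, an activator of many nuclear genes for mitochondrial proteins (chromosome 6, 30047988 to 30153458, plus strand). It had 0.857, 9.07 and 2.93 FPKM in KO tumor, 11.9, 9.85 and 4.48 FPKM in WT tumor, 15.6, 5.30, 6.17 and 11.6 FPKM in LN, and 6.83, 22.5, 6.43 and 9.03 FPKM in spleen. KO tumor had the lowest mean, 4.29 ± 4.27 FPKM, against 8.76 ± 3.85 FPKM in WT tumor, and all groups overlapped. The KO tumor against WT tumor difference was -1.13 ± 0.82 (-2.99 to 0.73, limma adjusted p = 0.782). WT tumor, LN and spleen lay within 0.24 of each other on the log2 scale: -0.11 ± 0.60 for WT tumor against LN (-1.40 to 1.19), -0.24 ± 0.60 for WT tumor against spleen (-1.53 to 1.05) and -0.13 ± 0.56 for LN against spleen (-1.33 to 1.06).

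Gabpa encodes the DNA-binding subunit of GABP, the ETS factor of nuclear respiratory chain genes (chromosome 16, 84834925 to 84863779, plus strand). Its values were 5.54, 4.71 and 2.37 FPKM in KO tumor, 1.83, 5.81 and 6.12 FPKM in WT tumor, 4.50, 0.505, 10.8 and 2.12 FPKM in LN, and 4.29, 9.91, 2.71 and 1.64 FPKM in spleen. The 4 group means lay between 4.21 and 4.64 FPKM, and libraries of 1 group spread further than the means. The differences were -0.04 ± 0.74 (KO tumor against WT tumor, -1.71 to 1.62), 0.30 ± 0.78 (WT tumor against LN, -1.37 to 1.98), 0.08 ± 0.78 (WT tumor against spleen, -1.59 to 1.76) and -0.22 ± 0.72 (LN against spleen, -1.77 to 1.33). Each interval reached beyond 1 on the log2 scale in both directions, so differences of that size were not excluded at this spread. Gabpa shares its position with Atp5j on the opposite strand, a gene of higher level (82.3 FPKM in WT tumor and 88.7 FPKM in spleen), so its reads are likewise uncertain.

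Tfam encodes the high mobility group protein that coats mtDNA and starts its transcription (chromosome 10, 71225464 to 71238280, minus strand). It had 0.190, 3.23 and 1.21 FPKM in KO tumor and 2.48, 1.61 and 2.25 FPKM in WT tumor. It had 2.23, 3.77, 5.68 and 2.27 FPKM in LN and 4.35, 0.574, 0.991 and 0.873 FPKM in spleen. The KO tumor 1 value lay under the level of 3 reads over the shortest coding transcript (0.378 FPKM), though not over the longest (0.0429 FPKM). LN had the highest mean (3.49 ± 1.62 FPKM), and 3 of 4 spleen libraries lay below all LN libraries, with spleen 1 among the LN values. LN against spleen was 0.86 ± 0.56 (-0.35 to 2.07, limma adjusted p = 0.672). KO tumor against WT tumor was -0.47 ± 0.69 (-2.03 to 1.09), WT tumor against LN -0.47 ± 0.61 (-1.78 to 0.84) and WT tumor against spleen 0.38 ± 0.61 (-0.92 to 1.69).

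In the order of group means, WT tumor was the lowest group for Mfn1, Mfn2, Opa1 and Esrra and the highest for Fis1 and Mff. Neighbouring groups in that order had overlapping ranges for all 10 genes, with the exception of Opa1 between spleen (7.41 FPKM) and WT tumor (1.65 FPKM). KO tumor was also set against LN and spleen in a fit of all 14 libraries, a comparison chosen after the values were seen. None of 10 genes passed against LN (3.42% of 10147 genes) or spleen (2.80%). In a further comparison, also chosen after the values were seen, both tumor groups together were set against both lymphoid groups. Fis1, which had the smallest adjusted p of the 10 genes there, was higher in tumor by 0.75 ± 0.22 (0.29 to 1.21). Its means were 415 and 255 FPKM, with a limma adjusted p of 0.0592. It therefore missed the threshold, where 5.46% of all genes passed. The adjusted p was 0.0242 without spleen 2 and 0.0449 without KO tumor 3, and 0.0531 to 0.15 without any other single library. For Fis1, spleen 2 was the highest lymphoid library and KO tumor 3 the lowest tumor library, so leaving either out widens the difference.

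The genes encoded by mtDNA, whose transcription TFAM starts, held most of the calls among the other genes of the pathway. Of 15 listed, 11 were tested. KO tumor against WT tumor gave 1 lower and 0 higher (median -0.30, all genes 0.07). WT tumor against LN gave 2 higher and 2 lower (median -0.35, all genes -0.12), WT tumor against spleen 3 higher and 1 lower (median -0.22, all genes -0.07) and LN against spleen 1 of each (median 0.25, all genes 0.02). The other 4 cannot be read: mt-Co2, mt-Atp6 and mt-Atp8 were listed at 0 in every library and mt-Co3 reached at most 0.209 FPKM, although every cell uses these genes.

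The ribosomal RNA genes of mtDNA were highest in WT tumor. The large ribosomal RNA gene mt-Rnr2 had 34635, 30631 and 29333 FPKM in KO tumor, 42395, 44045 and 41901 FPKM in WT tumor, 22484 to 23396 FPKM in LN and 27968 to 34822 FPKM in spleen. It rose in WT tumor by 0.89 ± 0.06 against LN (limma adjusted p = 6.47e-06) and by 0.43 ± 0.06 against spleen (0.00352). It fell in KO tumor by 0.44 ± 0.07 against WT tumor (limma adjusted p = 0.0397), a call lost without any 1 library other than KO tumor 1 (0.0954 to 0.243). It was also lost with a pseudocount of 0.1 (0.0550), without a filter (0.298), without the robust option (0.0712) and with protein-coding scaling (0.0576). In LN against spleen it fell by 0.45 ± 0.06 (limma adjusted p = 0.00544). The small ribosomal RNA gene mt-Rnr1 had 5390, 4872 and 5318 FPKM in KO tumor and 6699, 7995 and 8159 FPKM in WT tumor, against 3168 to 3395 FPKM in LN and 3819 to 4461 FPKM in spleen. It rose in WT tumor by 1.21 ± 0.09 against LN (limma adjusted p = 8.69e-06) and by 0.87 ± 0.09 against spleen (0.000405).

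Messenger RNA genes of mtDNA went both ways. The cytochrome oxidase gene mt-Co1 had 998, 1240.5 and 891 FPKM in KO tumor, 1462, 1268 and 1279.6 FPKM in WT tumor, 1205 to 1516 FPKM in LN and 798 to 889 FPKM in spleen. It rose by 0.67 ± 0.12 in WT tumor against spleen (limma adjusted p = 0.0135) and by 0.66 ± 0.11 in LN against spleen (0.0267). The second call was lost without any 1 library other than spleen 1 (0.0511 to 0.0725), and the first without WT tumor 2 (0.0600). With the replicate block both were lost (0.0674 for WT tumor and 0.0878 for LN), and in a fit of the 2 groups alone the WT tumor call was lost (0.0603). The complex I gene mt-Nd6 fell in WT tumor by 1.10 ± 0.16 against spleen (limma adjusted p = 0.00273). Its libraries lay at 725 to 986 FPKM in WT tumor and at 1513 to 2153 FPKM in spleen. Against LN, at 2054 to 2608 FPKM, it fell by 1.52 ± 0.16 in WT tumor (limma adjusted p = 0.000105). It lies on the opposite strand of mtDNA from the other subunit genes, so without strand its reads are uncertain. mt-Nd2, another complex I gene, fell by 0.72 ± 0.18 in WT tumor against LN (583 ± 71.5 and 966 ± 169 FPKM, limma adjusted p = 0.0489). That call was lost without any 1 library other than LN 1 (0.0539 to 0.153). It was also lost without a filter (0.0956), without the robust option (0.0503), with median of ratios scaling (0.0609) and with the replicate block (0.104).

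Coactivators and partners of the nuclear factors, which include the PGC-1 family and AMPK subunits, had 15 to 17 of 25 listed genes tested. Nrip1, a corepressor of nuclear receptors that include ERR alpha, rose in WT tumor against LN by 2.82 ± 0.49 (limma adjusted p = 0.00570). It had 51.0, 38.6 and 44.8 FPKM in WT tumor and 3.53 to 8.77 FPKM in LN, and no other gene of the list passed in any comparison. KO tumor had 44.7, 33.6 and 23.3 FPKM of Nrip1 and spleen 9.86 to 29.9 FPKM. Creb1, which encodes a transcription factor of the PGC-1 alpha gene, averaged 6.86 ± 3.10 FPKM in KO tumor and 14.2 ± 3.87 FPKM in WT tumor (-0.99 ± 0.62, limma adjusted p = 0.738). Yy1 had 39.9 ± 8.34 FPKM in KO tumor and 66.0 ± 28.9 FPKM in WT tumor (-0.62 ± 0.48). Prkag1, an AMPK subunit gene, differed by 1.95 ± 0.79 for WT tumor against spleen (limma adjusted p = 0.277) and by 1.64 ± 0.73 for LN against spleen (0.455). The list median was -0.30 for KO tumor against WT tumor, 0.31 and 0.32 for WT tumor against LN and spleen, and -0.15 for LN against spleen.

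Of 42 accessory genes of fusion and fission (proteases of OPA1, receptors, regulators and cristae genes), 30 or 31 were tested and 0 passed in each comparison. At an unadjusted limma p under 0.05, KO tumor against WT tumor had 2 higher and 1 lower, WT tumor against LN 0 and 2, WT tumor against spleen 3 and 3, and LN against spleen 1 and 0. The shares of all genes at that p were 8.64, 15.6, 14.3 and 10.4% in the same order. Afg3l2, a subunit gene of the inner membrane m-AAA protease, had 28.1, 31.0 and 33.6 FPKM in KO tumor and 17.1, 0.458 and 14.8 FPKM in WT tumor (2.09 ± 0.93, limma adjusted p = 0.579). Spg7, its partner subunit, averaged 9.11 ± 8.72 FPKM in WT tumor and 26.8 ± 7.63 FPKM in LN (-1.77 ± 0.72, limma adjusted p = 0.248), and 13.1 ± 11.3 FPKM in spleen. Mtfr1l averaged 46.8 ± 34.4 FPKM in KO tumor, 12.2 ± 11.1 FPKM in WT tumor and 33.7 ± 16.5 FPKM in LN. Parl, an inner membrane rhomboid protease gene, had 23.3 ± 13.3 FPKM in WT tumor and 6.88 ± 10.4 FPKM in spleen (2.27 ± 0.95, limma adjusted p = 0.299). Pink1, the kinase gene of damaged mitochondria, had 25.1 ± 26.9 FPKM in WT tumor and 68.0 ± 44 FPKM in spleen (-1.68 ± 0.71, 0.297). Chchd3, a cristae gene, had 34.2 ± 10.8 FPKM in LN and 12.2 ± 6.23 FPKM in spleen (1.47 ± 0.53, 0.315).

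Of 43 genes that maintain and express mtDNA, 21 to 31 were tested and 0 passed in each comparison. At an unadjusted limma p under 0.05, KO tumor against WT tumor had 2 higher and 0 lower, WT tumor against LN 0 and 5, WT tumor against spleen 1 and 1, and LN against spleen 0 and 1. Of all genes, 8.64, 15.6, 14.3 and 10.4% passed that p in the same order. These counts carry no test. Dguok, the mitochondrial deoxyguanosine kinase gene, had 60.4, 13.9 and 26 FPKM in KO tumor and 1.09, 2.62 and 10.2 FPKM in WT tumor (2.73 ± 0.82, limma adjusted p = 0.333). Its WT tumor differences were -2.60 ± 0.75 against LN (0.0875) and -2.72 ± 0.75 against spleen (0.0989). Tk2, the thymidine kinase gene of mitochondria, averaged 13.6 ± 9.79 FPKM in KO tumor and 21.2 ± 7.48 FPKM in WT tumor, and 13.5 ± 9.96 FPKM in LN against 46.8 ± 28.6 FPKM in spleen. Polg2, the accessory subunit gene of the mtDNA polymerase, averaged 15.0 ± 5.47 FPKM in WT tumor, 8.24 ± 9.42 FPKM in LN and 6.82 ± 9.76 FPKM in spleen. Tbrg4 averaged 9.24 ± 8.43 FPKM in LN and 19.7 ± 4.62 FPKM in spleen. The list median ran from -0.46 (WT tumor against spleen) and -0.43 (WT tumor against LN) to 0.25 (LN against spleen) and 0.42 (KO tumor against WT tumor).

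Of 18 genes that stand for mitochondrial mass, 16 or 17 were tested. Hspa9, the mitochondrial chaperone gene of protein import, had 8.59, 13.7 and 23.0 FPKM in WT tumor, against 60.3, 81.8, 69.5 and 93.9 FPKM in spleen. It fell by 2.35 ± 0.49 between these groups (limma adjusted p = 0.0252). That call was lost without spleen 2, 3 or 4 or without WT tumor 2 or 3 (0.0546 to 0.0950), and without a filter on low values (0.0659). No other gene of the list passed in any of the 4 comparisons. Hspa9 had 26.8, 35.7 and 40.3 FPKM in KO tumor, a difference of 1.21 ± 0.54 from WT tumor (limma adjusted p = 0.574). Timm50, an import receptor gene, averaged 63.3 ± 58.1 FPKM in KO tumor and 18 ± 14.4 FPKM in WT tumor, and 14.7 ± 9.87 FPKM in LN against 79.4 ± 22.8 FPKM in spleen (-2.55 ± 0.68, 0.154). Vdac1, the outer membrane channel gene, had 7.60 ± 6.13 FPKM in WT tumor and 17.6 ± 5.73 FPKM in LN, and Timm44 had 22.0 ± 18.3 FPKM in WT tumor and 40.3 ± 23.8 FPKM in LN. The list median was 0.33, -0.20, 0.03 and 0.20 for KO tumor against WT tumor, WT tumor against LN, WT tumor against spleen and LN against spleen.

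**Figure D5:**
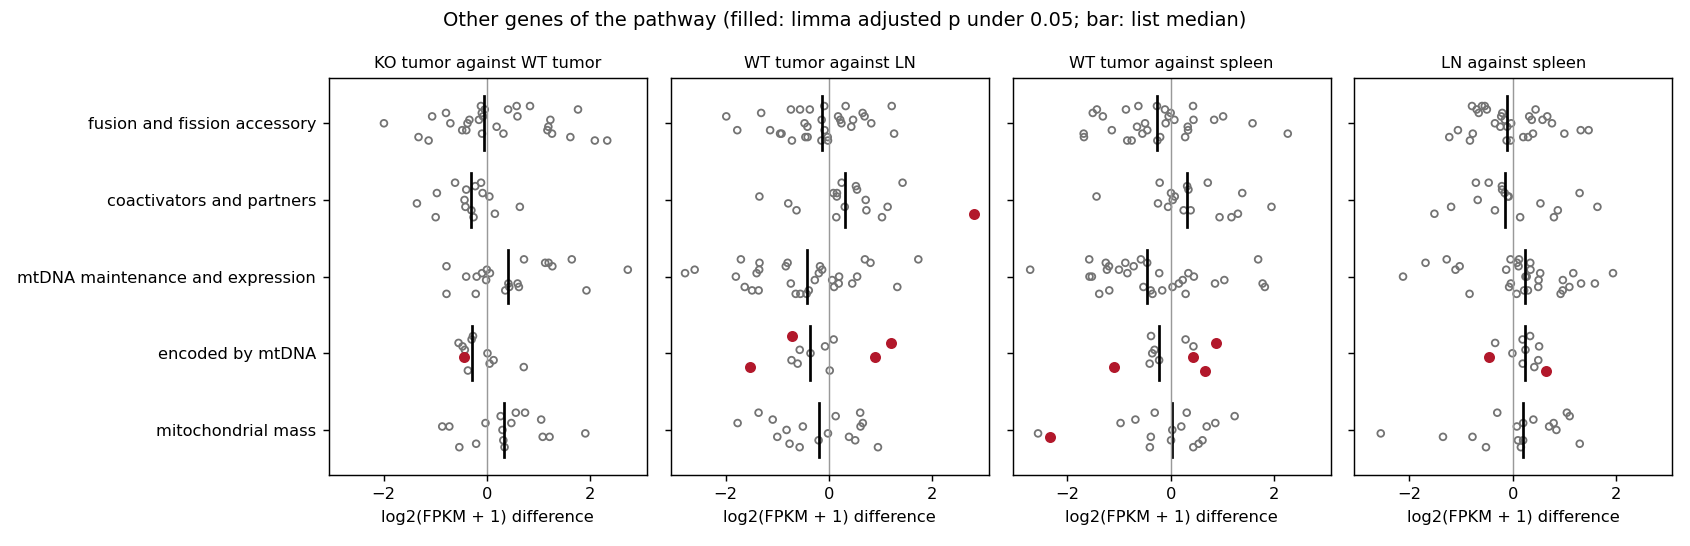
Log2(FPKM + 1) differences of the tested genes of 5 lists (rows) in 4 comparisons, 1 circle per gene, with filled red points past a limma adjusted p of 0.05 and a bar at the list median. Filled points lie mostly in the list encoded by mtDNA, with 4 for WT tumor against LN, 4 against spleen, 2 for LN against spleen and 1 for KO tumor against WT tumor.

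For Esrra, which had the smallest p of the 10 genes, the most similar patterns over the 14 libraries were sought among 4044 genes of at least 10 FPKM in mean. By root mean square distance of log2(FPKM + 1) values, each centred on its own mean, these were Arf3 (0.741), Hspa9 (0.749) and Sdcbp (0.765). The Esrra values themselves spread by 1.17 on the same measure. Arf3 and Hspa9 had their highest group means in spleen, with 109.7 to 177 FPKM and 60.3 to 93.9 FPKM. Hspa9 did not overlap between spleen and any other group, while 1 WT tumor library of Arf3 (126.7 FPKM) lay within the spleen range.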

How the data were processed

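RNA of sorted mouse Tregs was sequenced from 14 low-input libraries. The deposited files hold FPKM per gene, computed by the authors; per the submitters' processing notes, the tools were Cufflinks 2.2.1, Cuffdiff, DESeq2, Bowtie2 2.2.9, TopHat2 2.1.1 and Trimmomatic, and the builds named are mm10 and GRCm38. The strand setting is not given in the sources used here. Groups came from the labels.

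From these values, limma 3.58.1 (R 4.3.3) was run with trend and robust options on log2(FPKM + 1). Genes at 1 FPKM or more in at least 3 libraries of a fit were kept, and p-values were adjusted over all of them (Benjamini-Hochberg). WT tumor, LN and spleen shared a fit of 11 libraries, and the tumor groups had their own. The pseudocount makes fold changes of low genes too small. Depth was estimated from the spacing of low FPKM values, of which 93.6 to 97.3% were whole reads within 0.1; the estimate could be off by a whole factor. The 3-read floors cover counting error only. Annotation was GENCODE M21, which matched 22196 of 22255 genes. The limma steps were run on simulated data with normal errors, where known changes were added only to genes with a mean log2(FPKM + 1) above 3. That run therefore does not cover changes in genes as low as Mfn1, Mfn2, Gabpa and Tfam. Tables were handled in Python 3.11.15 with pandas 2.3.3, numpy 2.4.6 and matplotlib 3.10.9.

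The 10 genes and the lists were chosen with earlier results of these data known. From each list the text names, per comparison, up to 5 genes past the threshold, and otherwise the 2 of at least 10 FPKM in mean with the largest difference. The 3 patterns most like a gene are named for the gene with the smallest p. Trmt112, Atp5j, mt-Co2, mt-Co3, mt-Atp6, mt-Atp8, Adgre1, Cd68, Csf1r, C1qb, Fcer1g, Tyrobp, Lyz2 and Ighm were named after their values were seen. Alternatives changed the pseudocount, filter, robust option, libraries in the fit, scaling, replicate block and each library.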

Additional observations from a re-analysis of the deposited data

Results flagged for a closer look

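In groups of 4 libraries, 1 library can stand far from the other 3. Of 74 such groups among the named genes, 10 had a gap beyond Dixon's 95% critical value. The rate of about 1 in 20 behind that value holds for normally distributed values, which FPKM need not be. The count is therefore not set against chance. Among the 10 genes of fusion, fission and biogenesis it was 3 of 20 groups. Mfn1 reached 7.62 FPKM in LN 4, Nrf1 22.5 FPKM in spleen 2 and Tfam 4.35 FPKM in spleen 1, each the highest of its group. Of the other genes, Afg3l2 had 48.7 FPKM in spleen 2, Creb1 10.9 FPKM in LN 4, Parl 22.4 FPKM in spleen 3 and Polg2 21.3 FPKM in spleen 4. Tbrg4 had 21.9 FPKM in LN 3 and Yy1 54.1 FPKM in spleen 1, also the highest of their groups. For mt-Rnr2, LN 4 was the lowest of its group at 22484 FPKM. The groups of 3 tumor libraries were not examined in this way.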

How the results depend on the processing

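None of the 10 genes passed the threshold in the 4 comparisons of the study under any alternative listed in the methods, with a lowest limma adjusted p of 0.0690 over 603 values, of which 34 changed sign. Mfn2 for WT tumor against LN was 0.057 with a pseudocount of 0.1 and 0.092 with a replicate block. For KO tumor against WT tumor, Gabpa was 0.037 under protein-coding scaling, and Dnm1l 0.10 and Tfam 0.018 with a replicate block. The cause of these reversals was not tested.

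Leaving out 1 library at a time gave ranges that crossed 0. For WT tumor against spleen these were -0.15 to 0.39 (Dnm1l), -0.49 to 0.13 (Nrf1) and -0.21 to 0.51 (Gabpa). For WT tumor against LN they were -0.61 to 0.44 (Mfn2), -0.36 to 0.26 (Nrf1) and -0.19 to 0.80 (Gabpa). LN against spleen gave -0.29 to 0.82 (Mfn1), -0.089 to 0.60 (Opa1), -0.72 to 0.0053 (Mff), -0.38 to 0.24 (Nrf1) and -0.72 to 0.27 (Gabpa). KO tumor against WT tumor gave -0.58 to 0.12 (Dnm1l), -0.31 to 0.095 (Fis1) and -0.47 to 0.24 (Gabpa). In the comparisons chosen later, KO tumor against spleen gave -0.20 to 0.48 (Opa1), -0.37 to 0.33 (Dnm1l), -0.26 to 0.43 (Gabpa) and -0.55 to 0.37 (Tfam). KO tumor against LN gave -0.34 to 0.18 (Opa1), -0.23 to 0.76 (Gabpa) and -0.41 to 0.50 (Esrra). Both tumor groups against both lymphoid groups gave -0.31 to 0.28 (Mfn1), -0.13 to 0.24 (Mff) and -0.073 to 0.42 (Gabpa), with 0 to 1 of the 10 genes past the threshold.

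Of the other pathway genes, 5 passed for WT tumor against spleen (3 to 5 without 1 library), 2 for LN against spleen (1 to 2) and 1 for KO tumor against WT tumor (0 to 1). The last count was 0 with a pseudocount of 0.1, without a filter, without the robust option or with protein-coding scaling, and 2 in a fit of all 14 libraries. Over all genes, the 183 calls for WT tumor against spleen ran from 82 to 221, the 292 against LN from 183 to 349, the 48 for LN against spleen from 13 to 58 and the 23 for KO tumor against WT tumor from 0 to 60. Same-numbered libraries did not deviate together: over 18 pairs correlations ran from -0.0276 to 0.0301, so the numbers were not taken as pairs. With the replicate block, 89, 186, 20 and 6 genes passed in the same order of comparisons, and 1 other pathway gene for LN against spleen.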
